A study of Mus musculus with 10 samples.

Results

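Cytotoxic effector genes were followed through bulk RNA sequencing of 10 B16F10 tumors, as rows of the count files whose symbol is *Cd8a*, *Cd8b1*, *Gzma*, *Gzmb*, *Gzmk*, *Prf1*, *Nkg7*, *Ifng*, *Fasl* or *Tbx21*. All 10 of these genes were found among the 55401 gene rows, and all 10 passed edgeR's filter on low counts, which 15821 genes passed. B16F10 is a pigmented melanoma line of C57BL/6 mouse origin that is widely transplanted into mice of that strain. The tumors were taken on day 15 and grew from *Mir25* KO cells (n = 5) or from non-targeting control (NTC) cells (n = 5). Per the labels, 50000 tumor cells were injected under the skin of the left flank, and the methods state another cell number. Every mouse, KO or NTC, received the combination therapy (Comb), which paired GVAX (1000000 irradiated B16 cells that secrete GM-CSF, on days 1 and 4) with αPD-1 (10 mg/kg on days 6, 9 and 12). The deletion was made in the injected cells, and the host mice of both groups were C57BL/6J. The methods give 1 age range for all mice and describe KO lines both as pools and as single clones, and the labels do not state which line these tumors came from. No untreated tumors were part of the comparison.

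Cytotoxic T lymphocytes and natural killer (NK) cells kill their targets mainly by releasing lytic granules. Perforin opens the way into the target cell, granzymes are the serine proteases that enter it, and Fas ligand triggers a separate death receptor route. CD8 is the co-receptor by which a T cell reads peptides on MHC class I, interferon-γ is the cytokine that such cells secrete, and T-bet, encoded by *Tbx21*, is a transcription factor that drives the program. None of these genes is normally made by melanoma cells, so in a bulk tumor their level depends on the leukocytes in the piece as well as on the RNA per cell, and fewer cells and less RNA per cell cannot be told apart.

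The deleted gene gives the mature microRNA below, shown because it defines the groups. Its seed (bases 2 to 8) is in capitals, and the sequence is that of RefSeq on GRCm38.p6 (chr5:138165332-138165353, minus strand).

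miR-25-3p: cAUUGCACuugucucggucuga

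Reads on genes numbered 23243707 to 27006075 per KO tumor and 11896643 to 28682130 per NTC tumor. NTC replicate 1 stood apart, with the lowest total, a TMM factor of 0.628 (0.969 to 1.11 elsewhere) and 33193 genes with a count (22192 to 25435 elsewhere). Reads on genes without reads in any other library came to 0.957 counts per kb in that library, which would make up 0.184% of its *Gzmb* count and 29.7% of its *Tbx21* count of 8. Estimates and slopes of the effector genes, counts over gene lists, ratios and the order of levels are also given without this library. *Mir25* itself had no reads in any library, so the counts do not check the deletion. p-values measure the spread between tumors.

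Levels are CPM, the reads of a gene per 1000000 reads on genes after TMM normalization. The co-receptor genes lie side by side, *Cd8a* at chr6:71373427-71379173 and *Cd8b1* at chr6:71322788-71337494 (plus strand, GRCm38, GENCODE M21). *Cd8a* encodes the CD8 alpha chain. *Cd8a* stood at 15.6, 36.2, 10.4, 6.16 and 37.1 CPM in KO replicates 1 to 5 and at 17.1, 4.46, 7.38, 4.23 and 19.0 CPM in NTC replicates 1 to 5. KO 2 and KO 5 lay above every NTC tumor, whereas KO 4 lay below NTC 1, NTC 3 and NTC 5, so the groups overlapped. *Cd8b1*, the beta chain that pairs with it on conventional cytotoxic T cells, had 10.7, 30.2, 7.07, 3.75 and 28.7 CPM in KO tumors and 11.9, 3.15, 4.64, 2.81 and 13.3 CPM in NTC tumors. The same KO 2 and KO 5 stood above all NTC tumors. Their log2 fold changes, KO over NTC, were 1.03 (SE 0.59) for *Cd8a* and 1.19 (SE 0.65) for *Cd8b1*, with adjusted p of 0.645 and 0.635 by edgeR's quasi-likelihood test.

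Of the 5 granule genes, 4 were highest in KO 5, and *Gzma* was highest in NTC 1. *Gzmb* (chr14:56258838-56262260), the granzyme that activates caspases in the target, had 52.7, 65.5, 31.9, 32.4 and 140.0 CPM in KO tumors and 101.0, 33.5, 43.2, 16.1 and 51.2 CPM in NTC tumors. KO 5 was the highest tumor and NTC 1 the next, and 4 of 5 NTC tumors lay above the lowest KO tumor. *Gzma* (chr13:113093825-113100981), a tryptase, had 10.6, 6.95, 7.38, 4.25 and 18.8 CPM in KO tumors and 25.9, 3.32, 10.2, 3.25 and 8.81 CPM in NTC tumors. Its highest value was in NTC 1, and no KO tumor lay above that one. *Gzmk* (chr13:113171608-113225908), a granzyme of early effector and memory CD8 T cells, had 3.03, 7.60, 1.89, 0.433 and 7.70 CPM in KO tumors and 2.96, 0.985, 1.39, 0.163 and 1.98 CPM in NTC tumors. KO 1, KO 2 and KO 5 stood above every NTC tumor, and KO 4, with 12 counts, stood below all NTC tumors but NTC 4, which had 4 counts.

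*Prf1* (chr10:61297833-61304680) encodes perforin. It had 38.4, 61.2, 18.1, 17.6 and 72.9 CPM in KO tumors and 31.1, 20, 22.1, 13.3 and 48.4 CPM in NTC tumors. KO 2 and KO 5 again lay above all NTC tumors, and 4 of 5 NTC tumors lay above the lowest KO tumor. *Nkg7* (chr7:43437073-43438249), a granule membrane protein needed for full degranulation, had 11.3, 30.1, 7.65, 6.09 and 36.2 CPM in KO tumors and 14.3, 4.17, 7.13, 1.91 and 15.3 CPM in NTC tumors. Here the lowest tumor was NTC 4, and KO 2 and KO 5 lay above the NTC range. The log2 fold changes of the granule genes ran from -0.08 (SE 0.59) for *Gzma* through 0.41 (SE 0.52) for *Gzmb*, 0.63 (SE 0.46) for *Prf1* and 1.11 (SE 0.65) for *Nkg7* to 1.51 (SE 0.80) for *Gzmk*, with adjusted p from 0.631 to 0.979.

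*Ifng* (chr10:118441046-118445892), the interferon-γ gene, had 3.69, 5.01, 1.92, 1.01 and 8.36 CPM in KO tumors and 3.37, 1.94, 3.75, 1.26 and 3.05 CPM in NTC tumors. All 5 NTC tumors lay above the lowest KO tumor, and only KO 2 and KO 5 lay above the NTC range. In the annotation its exons overlap those of *Gm49751* on the same strand, which had 0 to 26 counts per tumor, and reads on shared bases may have been left out of either count. *Fasl* (chr1:161780689-161788495), the ligand of the death receptor Fas, had 4.18, 6.08, 1.99, 0.973 and 6.98 CPM in KO tumors and 4.04, 0.591, 1.77, 1.02 and 2.71 CPM in NTC tumors. KO 1, KO 2 and KO 5 exceeded every NTC tumor. *Tbx21* (chr11:97098071-97115331) had 4.06, 4.48, 1.79, 0.433 and 5.43 CPM in KO tumors and 1.08, 0.722, 0.978, 0.854 and 4.72 CPM in NTC tumors. The lowest tumor was KO 4, and among NTC tumors NTC 5 stood far above the other 4. The log2 fold changes were 0.58 (SE 0.53) for *Ifng*, 1.04 (SE 0.62) for *Fasl* and 0.93 (SE 0.71) for *Tbx21*, and adjusted p were 0.773, 0.657 and 0.733.

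**Figure D1:**
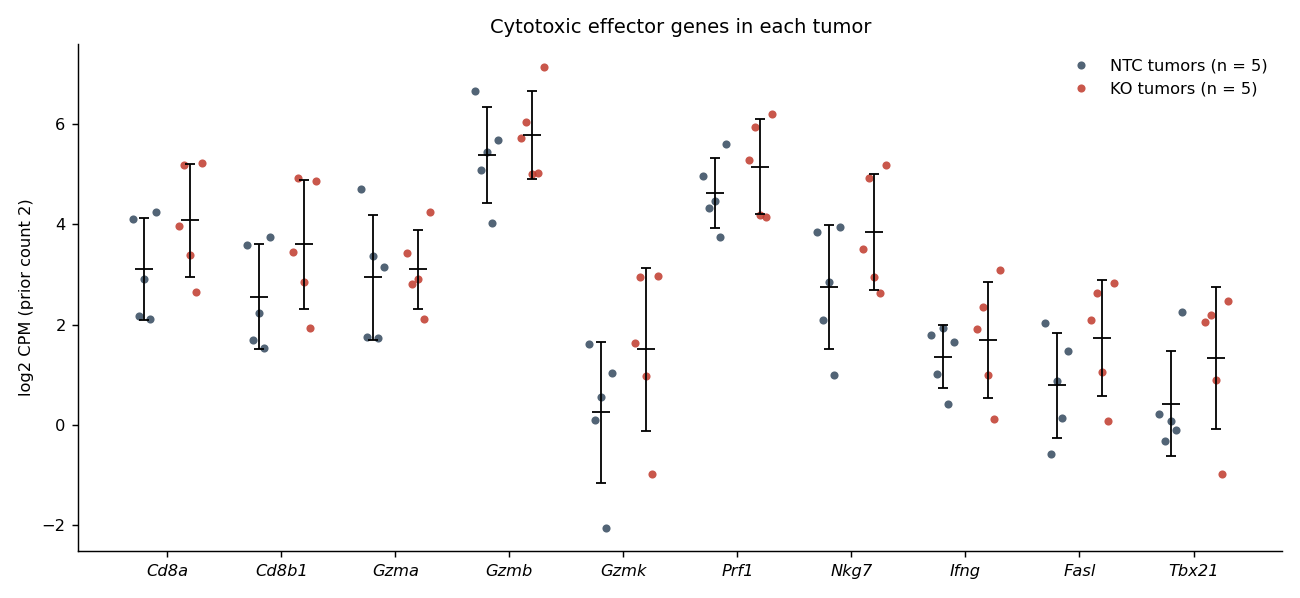
Each point is 1 tumor, with log2 CPM (prior count 2) on the y axis and the 10 genes on the x axis; the horizontal mark and bars give mean and SD per group (n = 5). The KO and NTC ranges overlap for all 10 genes.

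A call required an adjusted p under 0.05 and an absolute log2 fold change above 1. By edgeR's test 0 of 10 effector genes were called, against 0.00632% of the 15821 genes tested called higher and 0.0126% called lower in KO tumors. None of the 10 had an unadjusted p under 0.05 (3.99% of genes did with a higher and 4.85% with a lower estimate), and DESeq2 also called 0 of 10. In 9 of 10 the estimate was above 0, which was so for 51.3% of all genes, and the median of the 10 was 0.98 against 0.01 over all genes. For none of the 10 did the KO and NTC values separate, whereas 0.866% of genes had all KO tumors above all NTC tumors and 1.47% the reverse. The 10 estimates come from the same tumors and are not independent of each other.

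Without NTC replicate 1, *Gzma* turned from -0.08 to 0.55 (SE 0.48), and *Gzmb* moved to 0.80 (SE 0.47). *Gzmk* reached 1.81 (SE 0.82) and *Fasl* 1.36 (SE 0.60), the latter with an unadjusted p of 0.0470 and an adjusted p of 0.243 by edgeR. All 10 estimates were then above 0 (48.1% of all genes were), with a median of 1.01 against -0.02 over all genes, and still 0 of 10 were called (0.0124% of 16078 genes were called higher and 0.0933% lower). Only *Fasl* had an unadjusted p under 0.05, which 12.0% of all genes had with a higher estimate. Leaving out KO 5 instead brought *Gzmb* to -0.09 and *Gzma* to -0.47, so the direction of both granzymes hung on single tumors. The size of other estimates did so too. Without KO 5, *Ifng* fell to 0.13, *Prf1* to 0.33 and *Nkg7* to 0.70, and without NTC 5 *Prf1* had 0.95 and *Tbx21* 1.84. Over all 10 fits that left out 1 tumor, 0 of 10 effector genes had an adjusted p under 0.05.

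Leukocyte content differed widely between tumors. A T cell score was the mean log2 CPM of 10 genes (*Cd3d*, *Cd3e*, *Cd3g*, *Cd5*, *Cd6*, *Trac*, *Trbc1*, *Trbc2*, *Trat1* and *Cd28*), none of them an effector gene. It was 2.45, 3.30, 1.44, 0.83 and 3.48 in KO tumors and 2.39, 0.11, 0.84, 0.24 and 2.26 in NTC tumors. KO 2 and KO 5 were highest, NTC 2 and NTC 4 lowest, and NTC 1 and NTC 5 lay near KO 1. The group means were 2.30 ± 1.15 and 1.17 ± 1.09 (SD, n = 5 each), and a two-sided exact permutation test gave p = 0.159, or 0.111 without NTC 1. The leukocyte score (*Ptprc*, *Cd53*, *Laptm5*, *Coro1a*, *Cd52*, *Rac2*, *Itgb2*, *Cd48*, *Dock2* and *Evi2b*) averaged 5.68 ± 0.96 in KO and 4.70 ± 1.17 in NTC tumors (exact permutation p = 0.198, or 0.0952 without NTC 1). Adjusted over these 4 tests, each p was 0.198.

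With the T cell score as a covariate, the KO estimates compare tumors at equal score, and all 10 were lower than without it. *Cd8a* went from 1.03 to -0.11 (SE 0.13) and *Cd8b1* from 1.19 to -0.12 (SE 0.17). Among granule genes, *Nkg7* had -0.07 (SE 0.26), *Gzmk* -0.08 (SE 0.53), *Prf1* -0.30 (SE 0.21), *Gzmb* -0.42 (SE 0.30) and *Gzma* -0.77 (SE 0.40). *Fasl* had -0.14 (SE 0.27), *Tbx21* -0.31 (SE 0.47) and *Ifng* -0.55 (SE 0.41). All 10 were below 0, as were 51.5% of all genes, with a median of -0.22 against -0.01, and 0 of 10 were called, with 0.0190% of genes called in each direction and adjusted p of the 10 from 0.540 to 0.974. None had an unadjusted p under 0.05, which 4.78% of genes had with a higher and 5.43% with a lower estimate.

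With the leukocyte score the estimates lay between -0.66 and 0.15, and 3 of 10 were above 0, as were 51.0% of all genes. Without NTC 1 all 10 were below 0, where the median over all genes was 0.02. In 10 tumors *Cd8a* (-0.01, SE 0.26), *Cd8b1* (0.00, SE 0.32), *Nkg7* (-0.01, SE 0.29) and *Fasl* (0.01, SE 0.29) came closest to 0. That rested on NTC 1, without which they had -0.34 (SE 0.25), -0.39 (SE 0.31), -0.37 (SE 0.28) and -0.195 (SE 0.33). In those 9 tumors *Gzmb* had -0.39 (SE 0.29), *Gzmk* -0.23 (SE 0.58) and *Tbx21* -0.84 (SE 0.53). *Gzma* was lowest at -0.66 (SE 0.28), with an unadjusted p of 0.0347 (6.64% of genes had one under 0.05 with a lower estimate) and an adjusted p of 0.331. Again 0 of 10 were called, against 0.0253% of genes in each direction. Without NTC 1, *Gzma* had -0.44 (SE 0.34), while *Prf1* became the lowest in rank of p, at -0.69 (SE 0.22, unadjusted p = 0.00939, adjusted p = 0.316), and *Ifng* had -0.94 (SE 0.37, unadjusted p = 0.0260, adjusted p = 0.454). *Prf1* also had -0.53 (SE 0.18, unadjusted p = 0.0139, adjusted p = 0.377) with the T cell score in those 9 tumors. The other 9 genes had from -0.81 (SE 0.45) for *Ifng* and -0.73 (SE 0.38) for *Tbx21* to -0.08 (SE 0.32) for *Fasl* with the T cell score, so all 10 were again below 0, *Gzma* moving from -0.77 to -0.29 and *Tbx21* from -0.31 to -0.73. These are fits in which 4.07% (T cell score) and 4.19% (leukocyte score) of genes had an unadjusted p under 0.05 with a lower estimate. In 9 tumors 0 of 10 were called with either score, against 0.0311% of genes higher and 0.0498% lower with the T cell score and 0.0311% and 0.0435% with the leukocyte score.

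**Figure D2:**
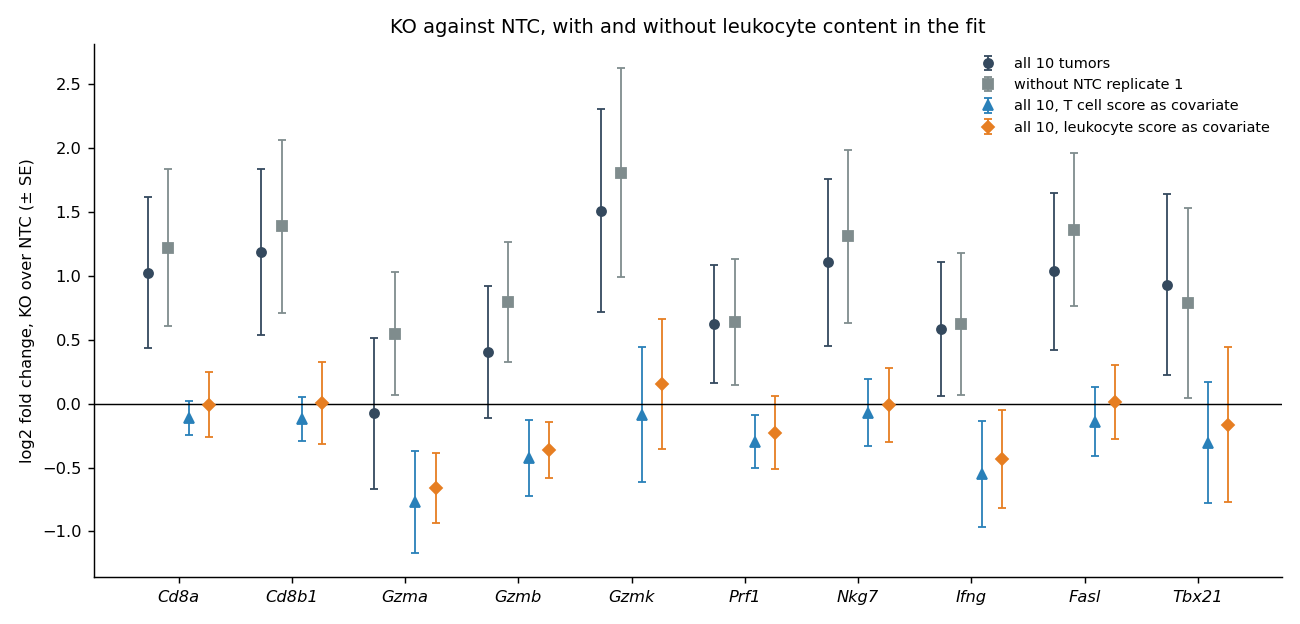
Points are edgeR log2 fold changes (KO over NTC, y axis) of each gene on the x axis and bars are ± SE, for all 10 tumors, for 9 tumors without NTC replicate 1, and for 10 tumors with the T cell or the leukocyte score as a covariate. The estimates without a score are above 0 except *Gzma* in 10 tumors, and those with the T cell score are all below 0.

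How far each gene followed the T cell score was taken from its slope on that score in the same fit, so that it rests on differences between tumors within KO and within NTC. Slopes near 1 were not particular to T cell genes. On this score the tested leukocyte score genes had a median of 1.03 and macrophage markers 1.05, against 0.96 for the effector genes. Without NTC 1 these medians were 0.90, 0.91 and 0.96. A slope of 1 means that a gene changed as much, on the log2 scale, as the score did, and gene and score share the library and its depth. Each score holds 1 gene too low to be tested, *Trat1* (at most 1.15 CPM) in the T cell score and *Evi2b* (at 0 in 9 of 10 tumors) in the leukocyte score. The other 9 genes of each score had a median slope of 1.12 on their own score, so a slope of 1 lies somewhat below proportion to those genes. All 10 slopes were called above 0 (adjusted p under 0.05), as were 18.6% of the 15821 genes, while 10.3% were called below 0. With the replicate number as a block, 2 of 10 kept their call, and 321 genes were called in either direction. *Cd8a* had a slope of 0.96 (SE 0.06, adjusted p = 5.29e-05) and *Cd8b1* 1.05 (SE 0.08, adjusted p = 6.48e-05). *Nkg7* had 0.98 (SE 0.12), *Fasl* 0.97 (SE 0.12), *Tbx21* 1.02 (SE 0.21) and *Gzmk* 1.12 (SE 0.23). Lower slopes were those of *Gzma* with 0.77 (SE 0.19), *Ifng* with 0.73 (SE 0.17), *Gzmb* with 0.71 (SE 0.13) and *Prf1* with 0.70 (SE 0.09). Adjusted p of the 10 slopes ran up to 0.0113, that of *Gzma*.

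**Figure D3:**
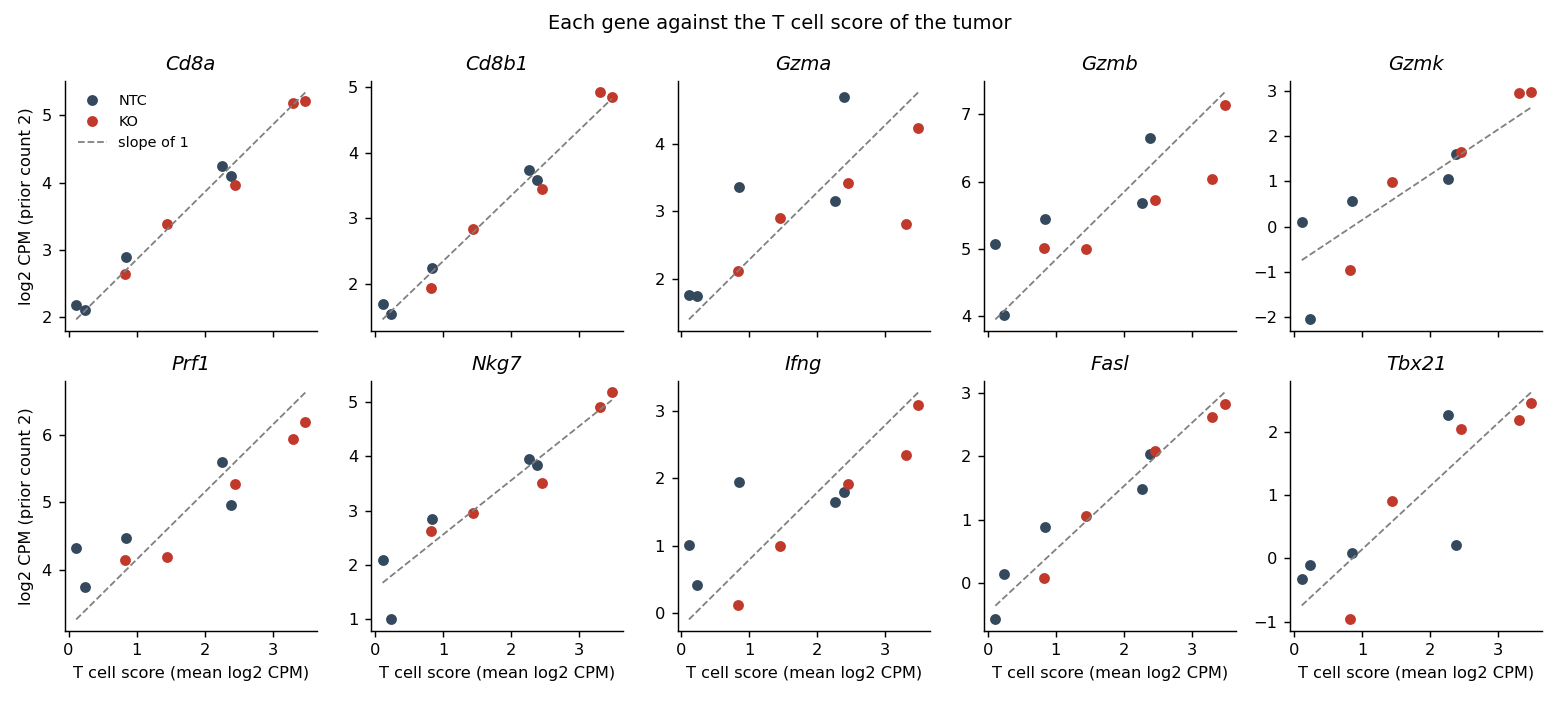
Each panel shows 1 gene, with the T cell score (mean log2 CPM of 10 genes) of a tumor on the x axis, its log2 CPM on the y axis, KO and NTC tumors as points and a dashed line of slope 1 through the mean. *Cd8a* and *Cd8b1* stay close to the line, whereas *Prf1* and *Gzmb* lie farthest above it in NTC 2, the tumor of lowest score, and farthest below it in NTC 1 (*Prf1*) and KO 2 (*Gzmb*).

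Without NTC 1 all 10 slopes were again called (12.9% of genes were called above 0), from 0.58 (SE 0.18, adjusted p = 0.0428) for *Gzma* to 1.17 (SE 0.17) for *Tbx21*. With each tumor left out in turn, 9 of 10 genes kept an adjusted p under 0.05 throughout. The exception was *Ifng*, with a slope of 0.59 and an adjusted p of 0.0614 without KO 4. On the leukocyte score the slopes ran from 0.71 (SE 0.13) for *Prf1* to 1.17 (SE 0.24) for *Gzmk*, and all 10 were called, with 22.7% of genes called above 0. The slope of *Tbx21* (0.92, SE 0.30, adjusted p = 0.0315) lost its call in 6 of 10 fits that left out 1 tumor (KO 3, KO 4, KO 5, NTC 2, NTC 4 or NTC 5), where its slope was 0.67 to 0.99 and its adjusted p at most 0.0891. Without NTC 1 all 10 slopes on the leukocyte score were called, from 0.77 (SE 0.17) for *Gzma* to 1.34 (SE 0.28) for *Gzmk*, with 0.91 (SE 0.10) for *Prf1* and 1.25 (SE 0.26) for *Tbx21*.

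The slopes were also tested against 1, a test chosen after seeing the data. On the T cell score *Prf1* fell short of 1 by 0.30 (SE 0.09, adjusted p = 0.00709) and *Gzmb* by 0.29 (SE 0.13, adjusted p = 0.0471). These were the only 2 of 10 called below 1, whereas 86.8% of all genes were, because most genes did not follow the score. None of the 10 was called above 1 (0.240% of genes were). *Prf1* kept its call in 10 of 10 fits that left out 1 tumor (adjusted p 0.00383 to 0.0303) and *Gzmb* in 3 of 10, losing it without KO 1, KO 2, KO 3, KO 4, NTC 2, NTC 3 or NTC 5 (up to 0.198). With *Trat1* left out of the score, a choice also made after seeing the data, *Prf1* fell short by 0.34 (SE 0.08, adjusted p = 0.00173) and *Gzmb* by 0.33 (SE 0.11, adjusted p = 0.0148). *Cd8a* differed from 1 by -0.04 (SE 0.06, adjusted p = 0.514). *Gzma* (-0.23, SE 0.18, adjusted p = 0.269) and *Ifng* (-0.27, SE 0.17, adjusted p = 0.166) were as far from 1 as *Gzmb*, within their errors, and were not called. On the leukocyte score none of the 10 was called below 1 (86.1% of genes were) or above it (1.93%), *Prf1* being lowest (-0.29, SE 0.13, adjusted p = 0.0501), followed by *Gzmb* (-0.21, SE 0.10, adjusted p = 0.0622). That count depended on the score and on single tumors. With *Evi2b* left out of the score, likewise chosen after seeing the data, *Prf1* had -0.37 (SE 0.12, adjusted p = 0.0111) and *Gzmb* -0.29 (SE 0.09, adjusted p = 0.00870), both called below 1. With the score as first defined, *Prf1* was called in 5 of 10 fits that left out 1 tumor (KO 2, KO 3, KO 4, KO 5 or NTC 5, adjusted p down to 0.0131) and *Gzmb* in 2 of 10 (KO 5 or NTC 4, down to 0.00560). Without NTC 1, *Prf1* was at -0.09 (adjusted p = 0.417), and without NTC 2 *Gzmb* was at -0.09 (adjusted p = 0.331).

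Levels relative to *Cd8a* show the same tumors on a linear scale. *Cd8b1* per *Cd8a* varied least, from 0.608 to 0.836 in KO and from 0.628 to 0.706 in NTC tumors. *Prf1* per *Cd8a* was 2.46, 1.69, 1.74, 2.86 and 1.96 in KO tumors and 1.82, 4.47, 3.0, 3.13 and 2.55 in NTC tumors. Of the NTC tumors, 3 (NTC 2, NTC 3 and NTC 4) exceeded every KO tumor, and NTC 1 lay within the KO range. *Gzmb* per *Cd8a* ran from 1.81 (KO 2) to 5.25 (KO 4) in KO tumors and from 2.69 (NTC 5) to 7.51 (NTC 2) in NTC tumors. The means were 3.45 ± 1.24 and 5.15 ± 1.90 (SD, n = 5 each). *Gzma* per *Cd8a* averaged 0.556 ± 0.219 in KO and 0.974 ± 0.450 in NTC tumors, with KO 2 lowest at 0.192 and NTC 1 highest at 1.51. Without NTC 1 the NTC means were 3.29 ± 0.828 for *Prf1*, 4.97 ± 2.14 for *Gzmb* and 0.839 ± 0.387 for *Gzma* (SD, n = 4). Of the other genes, *Ifng* per *Cd8a* also had a lower KO mean (0.190 ± 0.0411 against 0.320 ± 0.150 in NTC tumors). *Nkg7* (0.851 ± 0.128 against 0.799 ± 0.205) and *Gzmk* (0.173 ± 0.0584 against 0.145 ± 0.0731) had higher ones. *Fasl* (0.195 against 0.198) and *Tbx21* (0.154 against 0.161) were nearly equal. Without NTC 1 the NTC means were 0.350 for *Ifng*, 0.790 for *Nkg7* and 0.138 for *Gzmk*. For each of these ratios the groups overlapped.

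**Figure D4:**
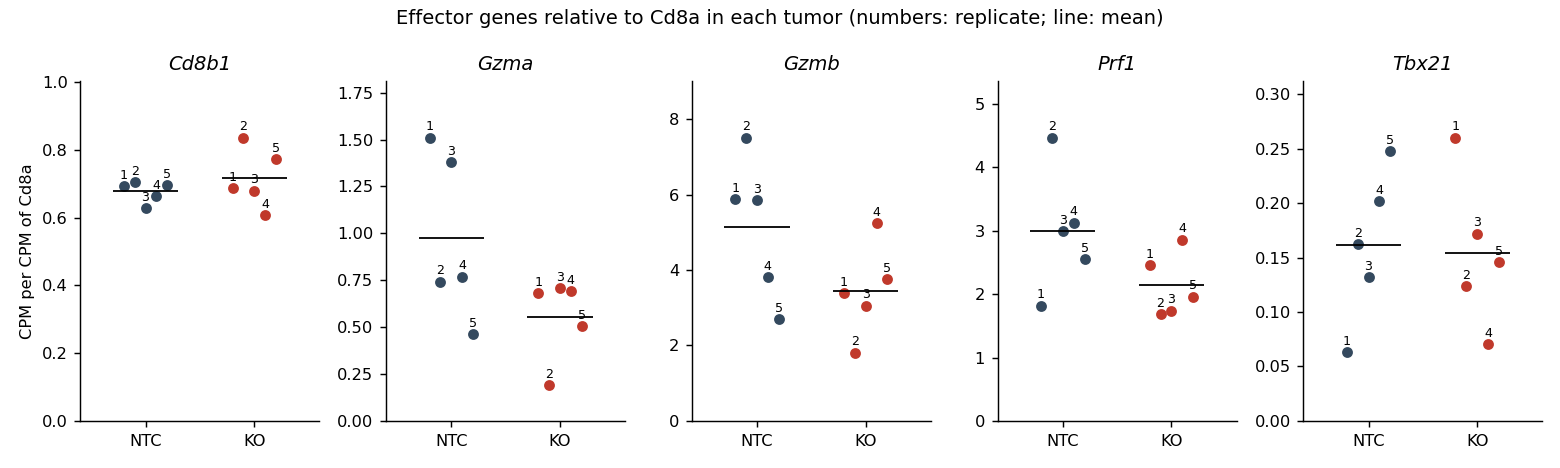
Each point is the CPM of a gene divided by the CPM of *Cd8a* in 1 tumor (y axis, from 0), labelled with its replicate number, with KO and NTC on the x axis and the group mean as a line. *Gzma*, *Gzmb* and *Prf1* have lower KO means with overlapping groups, and *Cd8b1* is nearly the same in every tumor.

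Levels can be compared between genes only per length, here as CPM per kb of exon. *Gzmb* was highest, at 39.5 ± 26.0 (SD, n = 10), and lay above *Nkg7* (14.7 ± 12.4) in 10 of 10 tumors. *Nkg7* and *Prf1* (13.3 ± 7.92) were not ordered, with *Nkg7* higher in 4 of 10, and *Gzma* (9.89 ± 7.19) was below *Prf1* and above *Cd8b1* (7.83 ± 6.82) in 7 of 10 each. *Cd8b1* exceeded *Cd8a* (4.33 ± 3.35) in 10 of 10 tumors. Below these came *Ifng* (2.58 ± 1.67), *Gzmk* (2.02 ± 1.96), *Fasl* (1.57 ± 1.15) and *Tbx21* (0.986 ± 0.791), each above the next in 8 or 9 of 10 tumors. Within a tumor, the mean log2 ratio of neighbours exceeded its SD for *Gzmb* over *Nkg7* (1.65 ± 0.61, SD, n = 10) and *Cd8b1* over *Cd8a* (0.77 ± 0.13), and barely for *Fasl* over *Tbx21* (0.77 ± 0.76). The other 6 neighbouring pairs did not differ beyond that spread. Without NTC 1, *Gzmb* and *Cd8b1* still lay above *Nkg7* and *Cd8a* in 9 of 9 tumors. Within a group, *Gzmk* spanned 17.8-fold among KO and 18.2-fold among NTC tumors, but each span rests on 1 tumor with few counts (KO 4 with 12 and NTC 4 with 4), the next lowest values being 1.89 and 0.985 CPM. *Prf1* spanned 4.13-fold in KO and *Ifng* 2.98-fold in NTC tumors.

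The other genes of the killing pathway were counted by role. Of 7 other granzymes, 6 were tested, and 0 of 6 had a slope called on the T cell score (-0.22 to 0.37, with SEs up to 0.68), where 18.6% of all genes were called above 0. *Gzmf*, a granzyme of the cluster beside *Gzmb*, had 37.3, 10.6, 6.97, 7.75 and 38.7 CPM in KO tumors and 17.0, 16.1, 2.68, 4.88 and 3.64 CPM in NTC tumors. KO 1 and KO 5 stood above the rest, while KO 2, with its high T cell score, did not. *Gzmc* (slope -0.17, SE 0.21) and *Gzmd* (slope 0.06, SE 0.39) belong to the same cluster of similar genes, between which counting may split reads. Their log2 fold changes, KO over NTC, were 1.22 (SE 0.69) for *Gzmf*, 0.23 (SE 0.42) for *Gzmc* and 1.29 (SE 0.71) for *Gzmd*, and 0 of 6 were called. Without NTC 1 these were 1.51 (SE 0.71), 0.23 (SE 0.46) and 1.36 (SE 0.77), and again 0 of 6 slopes on the T cell score were called.

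Of 9 granule exocytosis genes, 7 had slopes on the T cell score called above 0 and 1 below (-0.18). Over all genes 18.6% were called above 0 and 10.3% below. On the leukocyte score the 1 called below 0 was *Rab27a* (-0.21, SE 0.05). *Lamp1*, a lysosome membrane protein found in most cells, had 0.38 (SE 0.06), *Ctsc*, the protease that activates granzymes, 0.80 (SE 0.11), and *Lyst* 0.05 (SE 0.05). Serpins that inhibit granzymes or related proteases had 4 of 4 slopes called, among them *Serpinb9*, the granzyme B inhibitor, with 0.45 (SE 0.06), *Serpinb6b* with 0.80 (SE 0.09) and *Serpina3g* with 0.66 (SE 0.12). Effector cytokines had 4 of 5 called, with 1.12 (SE 0.12) for *Ccl5*, 0.98 (SE 0.09) for *Ccl4* and 0.98 (SE 0.16) for *Ccl3*. At equal T cell score 4 of 5 KO estimates of these cytokines were below 0 (median -0.28), from -0.90 (SE 0.35) for *Ccl3* and -0.79 (SE 0.21) for *Ccl4* through -0.28 (SE 0.28) for *Ccl5* to 0.38 (SE 0.38) for *Xcl1*. None was called, and without NTC 1, 3 of 5 were below 0 (median -0.39, from -0.53 to 0.39).

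Among all genes 18.6% had slopes called above 0 on the T cell score and 10.3% below. Receptors for IL-12, IL-18 and IL-2 had 5 of 6 called, with *Il2rb* at 0.88 (SE 0.08) and *Il18rap* at 1.05 (SE 0.11). *Il12rb1* (0.30, SE 0.11, adjusted p = 0.0754) was not called. Effector transcription factors had 7 of 8 called above 0 and 1 below, which was *Bhlhe40* (-0.22, SE 0.06). Inhibitory and exhaustion genes had 6 of 6 called, from 0.90 to 1.13, including *Pdcd1* (0.94, SE 0.13), the receptor that αPD-1 blocks, *Havcr2* (1.01, SE 0.09) and *Entpd1* (1.08, SE 0.10). Naive and memory genes had 4 of 6 called, and genes of death receptors and a ligand of them 2 of 3. Interferon-γ receptor and target genes had 5 of 8, where *Gbp2* had 0.35 (SE 0.07) and *Irf1* 0.14 (SE 0.07, adjusted p = 0.153). KO against NTC, 0 genes of any of these lists were called in 10 tumors or without NTC 1. Without that library 12.9% of all genes had slopes called above 0 on the T cell score. The lists then had 5 of 9 for granule exocytosis, 3 of 4 for serpins, 6 of 6 for the receptors, 3 of 6 for naive and memory genes and 6 of 8 for interferon-γ receptor and target genes. The counts of the other pathway lists were as with 10 tumors.

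The effector genes are not private to CD8 T cells. Of 8 NK markers 7 were tested, and 5 of 7 had slopes called above 0 on the T cell score, as had 18.6% of all genes. Without NTC 1 this was again 5 of 7, against 12.9% of all genes. Their summed level ran from 12.0 to 85.2 CPM in KO tumors and from 7.98 to 59.5 CPM in NTC tumors, with 1 of 8 at 0 in NTC 2. *Klrk1*, a receptor that CD8 T cells also carry, had 16.1, 39.3, 8.05, 5.59 and 41.6 CPM in KO tumors and 22.8, 3.74, 13.8, 4.72 and 17.7 CPM in NTC tumors. With the T cell score in the fit the 7 NK estimates, KO over NTC, were all below 0 (median -0.54, from -1.52 to -0.25). So were all 10 effector genes and 51.5% of all genes, and 1 of the 9 tested leukocyte score genes was above 0. Without NTC 1, 5 of 7 NK estimates were below 0, with a median of -0.62. The part of NK cells in the values of the effector genes was not tested. *Cd4*, which helper T cells and some myeloid cells carry, had 1.84 to 8.05 CPM in KO and 0.0985 to 7.0 CPM in NTC tumors. Its slope was 1.05 (SE 0.23), or 0.88 without NTC 1.

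On the T cell score 18.6% of all genes had slopes called above 0 and 10.3% below. Macrophage markers had 6 of 6 called above 0 (median 1.05), and dendritic cell markers 3 of 6. Both counts were the same without NTC 1, where 12.9% of genes were called above 0. Summed macrophage markers ran from 759 to 3480 CPM in KO and from 225 to 2680 CPM in NTC tumors. Melanoma markers had 4 of 6 slopes called below 0 (median -0.22), or 2 of 6 without NTC 1, for which no share over all genes is given. Their summed level was lowest in NTC 1 and KO 5, at 10800 and 11300 CPM. Neutrophil, B cell and mast cell markers were highest in NTC 1, at 102, 8.76 and 20.6 CPM against at most 58.0, 7.14 and 9.15 CPM in KO tumors, and this was also the tumor with the highest *Gzma*. For neutrophils, B cells and mast cells no part in that value was tested.

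Likeness to the effector genes was measured as the root mean square difference between a gene's centred log2 CPM profile over the 10 tumors and the mean profile of the 10 effector genes. The 5 nearest other genes were *Rasa4* (0.205), *H2-Aa* (0.207), *Unc13d* (0.212), *Fam83f* (0.213) and *H2-Ab1* (0.216), against a median of 1.05 over all other genes. Without NTC 1, 3 of these 5 stayed among the nearest 5 (*Rasa4*, *H2-Aa* and *Unc13d*), joined by *Rhoh* (0.163) and *Cd74* (0.189). *Unc13d* encodes Munc13-4, which primes lytic granules for release, and *H2-Aa* and *H2-Ab1* encode MHC class II chains. Of the effector genes themselves *Cd8a* (0.223) was nearest to the mean profile and *Gzma* (0.643), *Tbx21* (0.627) and *Gzmk* (0.618) were farthest.

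The promoters of the effector genes (300 bases around the start that RefSeq gives each gene on GRCm38.p6) were searched on both strands for a T-box word, TCACACC, and a Runx word, TGTGGT. Promoters were given for 9 of 10 genes (not *Cd8b1*). For *Gzmk* the RefSeq start, 113180965, lies 44943 bases inside the GENCODE gene printed above, and for *Nkg7* it lies 65 bases inside. The *Gzmb* start lies 74 bases before the GENCODE one, that of *Prf1* 3 bases after it, and the other 5 starts are the same. The T-box word was found in 2 of 9, and in 3.95% of 32544 promoters of this length. The Runx word was found in 4 of 9, and in 16.7% of all promoters. A match is a description of letters and not a binding site. The 30 bases around each match are given 5′ to 3′ on the gene's strand with the word or its reverse complement in capitals, so that their surroundings can be compared.

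*Nkg7*, T-box: ggggtagggaaGGTGTGAgaagaatcagat
*Gzmk*, T-box: ttgaaaccttgGGTGTGAaaaatctaacgt
*Nkg7*, Runx: ggcccacccctACCACAtaggaggagagga
*Prf1*, Runx: gggaacctgtgACCACActctgggggcagg
*Gzma*, Runx: agaagaacaaaACCACAtcctttgcactct
*Gzmb*, Runx, farther from the start: ccctatgccctTGTGGTcttgccctgggct
*Gzmb*, Runx, nearer the start: gtgggttctgcTGTGGTtacttcatgattc

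*Nkg7* holds both words, at chr7:43437114-43437143 and chr7:43437044-43437073, and *Gzmb* holds the Runx word at chr14:56262409-56262438 and chr14:56262350-56262379. The other windows are chr13:113181022-113181051 (*Gzmk*), chr10:61297695-61297724 (*Prf1*) and chr13:113101013-113101042 (*Gzma*).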

How the data were processed

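Single tumors of 2 groups, *Mir25* KO and NTC (n = 5 each), were grouped by the sample titles. The authors trimmed reads with Trimmomatic, aligned them to mm10 with HISAT2 and counted them per gene with HTSeq (per the labels' processing notes), and deposited whole-number counts without normalization. The strand setting and the annotation are not given in the sources used here. Symbols on more than 1 row (107) were kept apart, and summary rows were left out. Reads outside genes made up 17.5% to 28.2% of 9 libraries and 42.9% of NTC 1. Counts were fitted with edgeR 4.0.16 (TMM, filterByExpr, quasi-likelihood test, Benjamini-Hochberg adjustment over all genes tested) in R 4.3.3, with group alone or with a T cell or leukocyte score as covariate. Standard errors are the absolute estimate divided by the square root of F. Slopes were tested against 1 with the score as an offset. Log2 CPM used a prior count of 2. DESeq2 1.42.0, RLE normalization, other filters and scores, a replicate block and leaving out each tumor were alternatives. Scores were compared by exact permutation in scipy 1.17.1. Named genes were the 10 members, the 3 of highest mean CPM in each list, and the 5 with the nearest profile in 10 tumors or without NTC 1. Some genes given values, such as *Xcl1*, *Rab27a*, *Trat1* and *Evi2b*, lie outside that rule. Members and lists were chosen with earlier results of these data known. The fits were tested on simulated data. Gene positions came from GENCODE M21 (GRCm38), which may differ from the authors' annotation. Of the gamma-delta T cell markers, only *Trdc* was matched by symbol and none was tested.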

Additional observations from a re-analysis of the deposited data

Results flagged for a closer look

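In 64 comparisons of 1 tumor with the rest of its group of 5, covering levels and levels relative to the scores, 5 values lay farther out than Dixon's 95% limit of 0.71 for the gap divided by the range. Chance alone puts about 1 in 20 groups past that limit.

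Of the 5, 3 concern KO 4, the KO tumor with the lowest T cell score. *Prf1* log2 CPM minus the T cell score was 3.32 there, against 2.63 to 2.81 in the other KO tumors. *Fasl* minus the leukocyte score was -4.52 in KO 4, against -3.91 to -3.72, and *Tbx21* minus the leukocyte score was -5.56, against -4.28 to -3.76, the latter on 12 *Tbx21* counts. Among NTC tumors, *Gzmb* minus the leukocyte score was 1.48 in NTC 2, against 0.34 to 0.61, and NTC 2 also had the lowest T cell score of all 10 tumors. *Tbx21* log2 CPM was 2.26 in NTC 5, against -0.32 to 0.21 in the other 4 NTC tumors.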

How the results depend on the processing

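In every alternative run, 0 of 10 effector genes were called KO against NTC, with or without a score. Over all genes the calls numbered 3 with edgeR, 96 with DESeq2, 6 with at least 10 counts in every tumor, 5 with robust dispersion, 5 with no fold threshold and 761 with DESeq2 without a filter and without NTC 1, where *Gzma* had 0.58. *Gzma* was also above 0 with no filter (0.020). Scores from summed CPM put *Cd8a* (0.019) and *Nkg7* (0.019) above 0 with the leukocyte score. The cause of these changes was not tested.

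The sample titles number the replicates and state no pairing. Correlations of deviations between KO and NTC tumors of the same number were 0.17, -0.29, 0.08, 0.63 and 0.21. No reference from tumors of unlike number was taken, so these do not decide whether the numbers pair the tumors. With the replicate block the calls numbered 1 without a score, 0 with the T cell score and 1 with the leukocyte score, and *Gzma* had 0.17. At equal T cell score the block put *Gzmk* at 0.29, *Nkg7* at 0.038 and *Tbx21* at 0.22, and at equal leukocyte score *Cd8a* at 0.16, *Prf1* at 0.070, *Nkg7* at 0.18 and *Tbx21* at 0.70. Slopes called with the block fell to 321 genes and 2 of 10 effector genes (*Cd8a* and *Cd8b1*) on the T cell score, against 4572 genes and 10, and to 2441 genes and 8 effector genes on the leukocyte score, against 5975 and 10. The block leaves fewer residual degrees of freedom.

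With each tumor left out in turn, the calls over all genes ranged from 1 to 17 without a score, from 2 to 34 with the T cell score and from 1 to 28 with the leukocyte score, and slopes on the T cell score from 2719 to 5762. *Gzma* ranged from -0.47 to 0.55 and *Gzmb* from -0.088 to 0.80. At equal T cell score *Gzmk* ranged from -0.38 to 0.36, *Nkg7* from -0.22 to 0.027, *Fasl* from -0.31 to 0.022 and *Tbx21* from -0.73 to 0.30. At equal leukocyte score *Cd8a* ranged from -0.34 to 0.30, *Cd8b1* from -0.39 to 0.32, *Gzmk* from -0.23 to 0.59, *Prf1* from -0.69 to 0.059, *Nkg7* from -0.37 to 0.27, *Fasl* from -0.20 to 0.26 and *Tbx21* from -0.84 to 0.78.

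The slope of *Prf1* on the T cell score stayed below 1 with a score from *Cd3d*, *Cd3e* and *Cd3g* (by -0.31, adjusted p = 0.00243) and from summed CPM (-0.33, 0.00259). The lowest counts behind the effector genes were 4 for *Gzmk* in NTC 4 and 8 for *Tbx21* in NTC 1, where counting error is largest.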
